A study of Rattus norvegicus with 20 samples.

Results

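Cell cycle and DNA replication genes were examined in the livers of 20 rats on 4 diets. From a list of 44 rat gene symbols that covers cyclins, cell cycle kinases, replication enzymes and the machinery of mitosis, 41 genes were measured by a probe set annotated to a single gene, out of 14217 such genes on the array. Rrm2, Nek2 and Tpx2 were not analysed here. A gene measured by several probe sets was represented by the 1 whose mean z was the highest, so the choice did not use the diets.

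Male Sprague-Dawley rats, received at 4 weeks of age, ate their diet for 21 days, and 5 rats per group went to the arrays, 1 array per rat. The TF diet held tofu and fish oil, the TS diet tofu and soybean oil, the CF diet casein and fish oil, and the CS diet casein and soybean oil. All diets held 200 g/kg protein and 150 g/kg fat, of which fish oil made up 50 g/kg in TF and CF. The tofu diets still contained some casein, the fat of tofu took the place of soybean oil, and the array rats were those with intermediate food consumption. Liver mRNA was read on Affymetrix Rat Genome arrays, and each value is a z score, the position of a probe set on a log scale within its own array. A difference of 0.2 in z corresponds to a 1.41-fold difference. Rats are named by diet and number, such as CS-1.

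Most hepatocytes of an adult liver are quiescent. A cell that re-enters the cycle raises cyclin D with its kinases, which release E2F transcription factors and thereby the genes of DNA synthesis, and a later wave driven by cyclin B and Cdk1 carries the cell through mitosis. In growing rats, a share of the liver cells divides. The mRNA of the replication and mitosis genes is made mainly in dividing cells, and in whole liver fewer cells of a type and less RNA per cell cannot be told apart.

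Of the 41 genes, 23 had means above the highest array median, 0.022, in all 4 groups, while the other 18 were not above it in at least 1 group. These 18 were Ccna2, Gmnn, Mcm3, Mcm4, Tyms, Top2a, Mki67, Bub1, Bub1b, Aurkb, Pbk, Birc5, Kif11, Kif2c, Cenpf, Hmmr, Racgap1 and Ect2. All 41 had a value in each of the 20 rats. The tissue label was checked against 7 hepatocyte genes, such as albumin (Alb), whose mean z was 2.78 to 3.57. The array medians lay between -0.102 and 0.022. The 5' beta-actin control, which bears on the integrity of RNA and labelling, was 1.30 to 1.42 in 4 rats (TF-3, TS-1, CF-1 and CS-1), and 1.86 to 2.13 in the other 16. The 3' beta-actin control was also lower in these 4 rats, at 2.09 to 2.20, against 2.34 to 2.62 in the other 16. The lower signal was thus not limited to the 5' end. TF-4, TF-5 and TS-7 were the 3 arrays that correlated least with the others.

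The replication and mitosis genes moved together from rat to rat, and the differences between rats of 1 diet were as large as those between diets. For each rat, the deviation of each gene from its own mean over the 20 rats was averaged over the 41 genes. This level averaged -0.0477 ± 0.0979 in TF, -0.0274 ± 0.0594 in TS, -0.0257 ± 0.116 in CF and 0.101 ± 0.129 in CS (SD, n = 5 each), and the SD between rats of 1 diet was 0.104. By rat, it was -0.0767, 0.0775, 0.0299, -0.153 and -0.116 in TF, -0.123, 0.0142, -0.00771, -0.0436 and 0.0232 in TS, 0.0534, -0.0556, 0.0598, 0.0309 and -0.217 in CF, and 0.277, -0.0431, 0.0547, 0.0274 and 0.188 in CS. The ranges of the 4 diets overlapped. CS-1 and CS-7 were the highest rats and CF-7 the lowest, and the other 3 CS rats lay within the range of the other groups.

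CS-1 had 37 of the 41 genes above their mean and was the highest of the 20 rats in 20 of them. CS-7 had 34 above and was the highest in 12. In CF-7, 37 of the 41 genes lay below their mean, and it was the lowest of the 20 rats in 18. CS-1 is 1 of the 4 rats whose 5' beta-actin was low, while the other 3 such rats had levels of -0.0767 (TF-3), -0.123 (TS-1) and 0.0534 (CF-1). The 5' beta-actin values of CS-7 and CF-7 were 2.10 and 2.03, within the range of the other arrays.

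**Figure D1:**
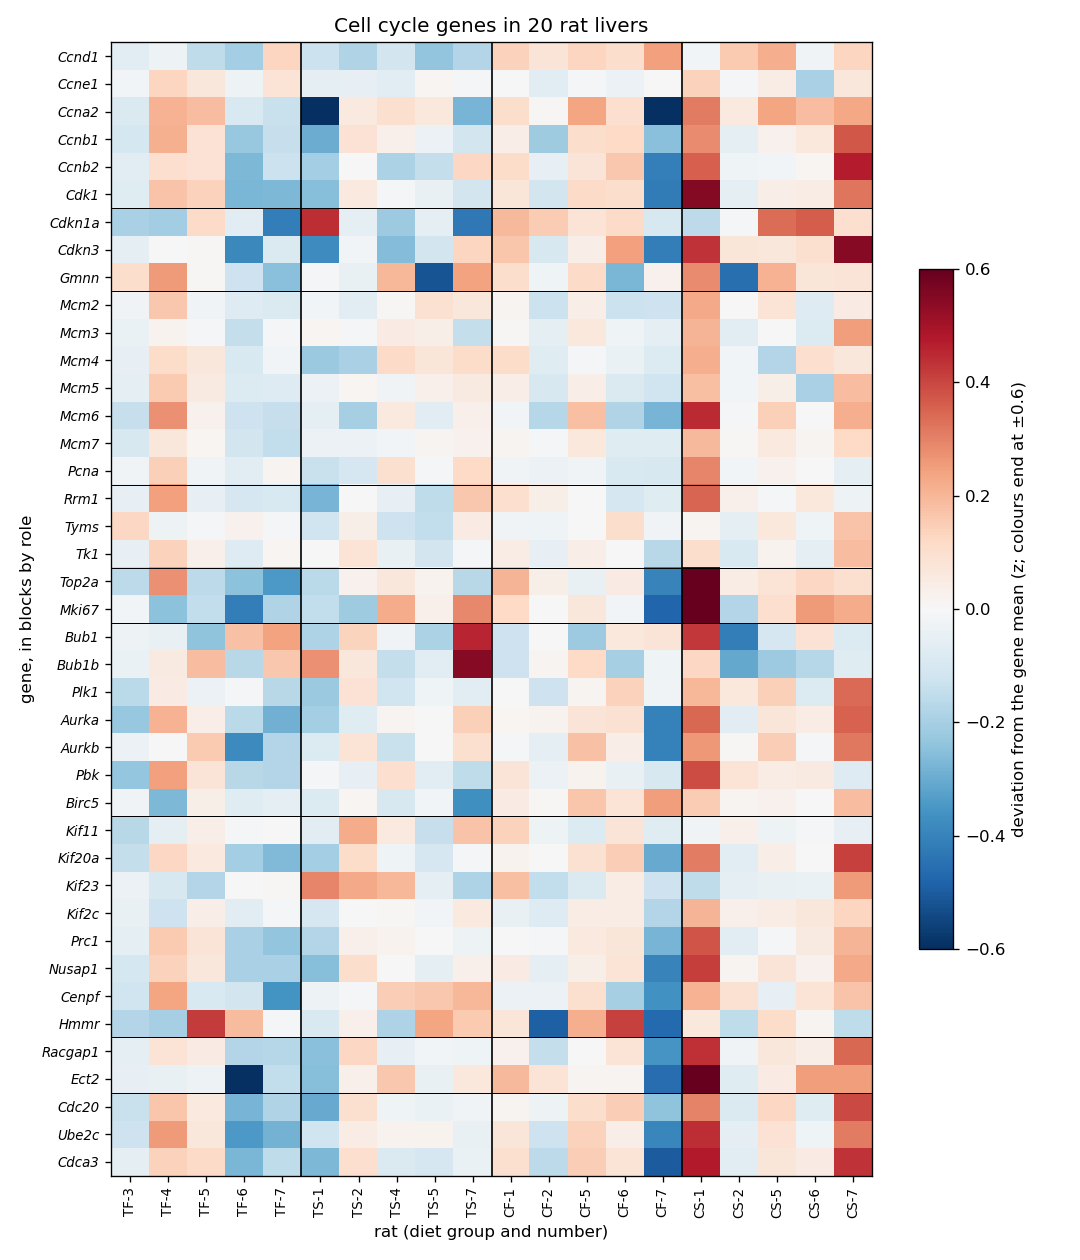
Deviation of each of the 41 genes (rows, in blocks by role) from its mean over the 20 rats, in z, by rat (columns, diet groups TF, TS, CF and CS divided by black lines). The columns of CS-1 and CS-7 are red and that of CF-7 is blue over most rows, while Ccnd1 in the top row follows the protein source.

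After the mean of each diet was subtracted, each gene was correlated over the 20 rats with the mean of the other 40. The Pearson r had a median of 0.698 and ranged from -0.34 to 0.97. It was 0.5 or higher in 31 of the 41 genes (75.6%), against 550 of 14175 other genes (3.88%), whose median r was 0.065. It was 0.8 or higher in 16 of the 41, against 17 of the others (0.12%). These correlations are a description, since the points share arrays and their normalization.

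Cdca3, which prompts entry into mitosis, came first, followed by Cdk1, the mitotic kinase (0.96), Nusap1, which binds spindle microtubules (0.96), Ube2c, a ubiquitin enzyme of the anaphase-promoting complex (0.95), Racgap1 of the central spindle (0.95) and Prc1, a microtubule bundler (0.94). By role, the median r was 0.951 for the 3 genes of the anaphase-promoting complex and mitotic entry, 0.881 for the 2 cytokinesis genes, 0.791 for the 6 cyclins and Cdk1, 0.731 for the 2 genes of chromosome structure, 0.674 for the 7 genes of replication licensing and the fork, 0.670 for the 8 spindle and kinetochore genes, 0.612 for the 3 nucleotide supply genes, 0.537 for the 7 mitotic kinases and checkpoint genes and 0.419 for the 3 inhibitors. Cdk1 illustrates the pattern, with z of 0.39, 0.63, 0.60, 0.19 and 0.19 in TF rats, 0.20, 0.52, 0.45, 0.42 and 0.35 in TS rats, 0.54, 0.35, 0.57, 0.57 and 0.041 in CF rats and 1.01, 0.41, 0.50, 0.51 and 0.78 in CS rats. It was highest in CS-1 and CS-7 and lowest in CF-7. Cdc20, which activates the anaphase-promoting complex, was likewise highest in CS-7 (0.91) and CS-1 (0.81), and its lowest values were in TS-1 (0.21), TF-6 (0.24) and CF-7 (0.27). Cdk1 and Cdc20 were singled out after their values were seen.

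The r of 10 genes was under 0.5. Ccnd1 (-0.34), Cdkn1a (-0.22), Birc5 (-0.11) and Kif23 (-0.043) were below 0. The others were Bub1 (0.14), Kif11 (0.23), Tyms (0.29), Bub1b (0.30), Hmmr (0.33) and Gmnn (0.42), and the mean z of these 6 was below 0 in all 4 diets. The within-diet SD of the 41 genes had a median of 0.166, against 0.0953 over all genes.

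**Figure D2:**
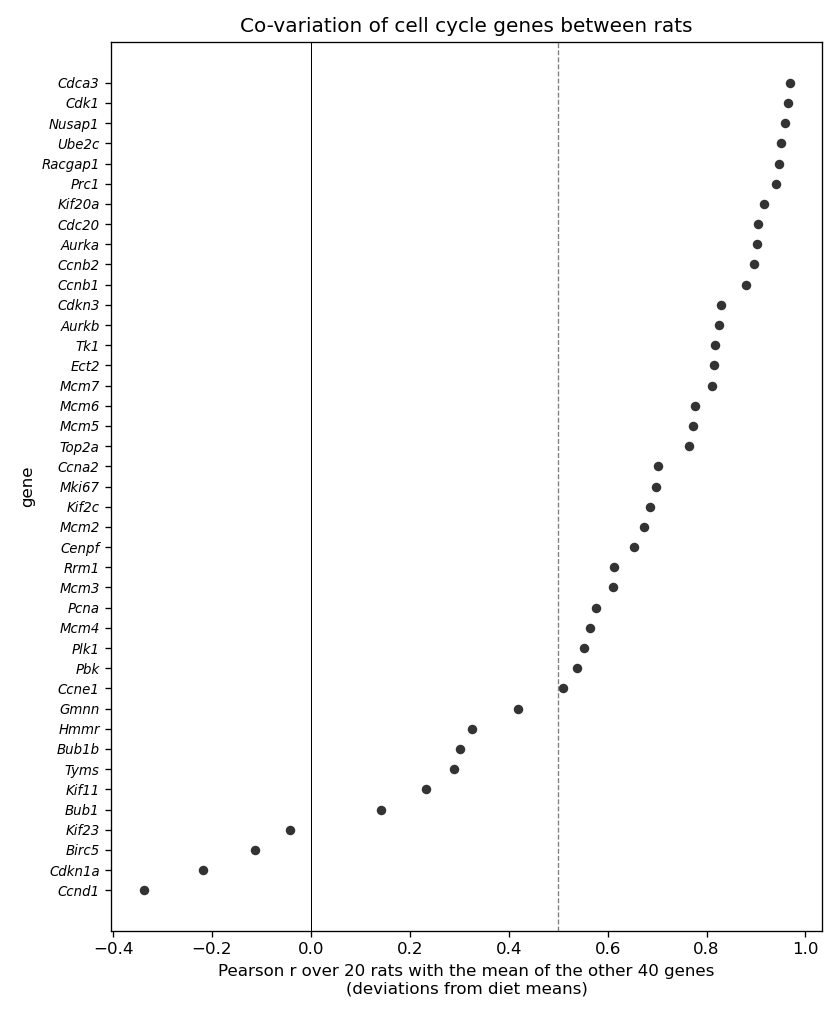
Pearson r of each of the 41 genes with the mean of the other 40, over 20 rats, from deviations from the diet means. The dashed line marks 0.5, which 31 genes reach, and Ccnd1, Cdkn1a, Birc5 and Kif23 lie left of the line at 0.

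The promoter windows of these genes were read because the genes move together. In human and mouse cells, genes of the mitotic wave are known for CCAAT boxes, bound by NF-Y, and for the cell cycle genes homology region (CHR), bound by the DREAM and MuvB complexes, and genes of DNA synthesis for E2F sites. RefSeq windows of 300 bases, from 250 before to 50 after the annotated start on build GRCr8, matched 34 of the 41 genes. The letters searched, on both strands, were CCAAT for the box, TTTGAA for the CHR, with TTCGAA counted too and likewise TTTAAA, and 4 forms for E2F. The E2F forms were TTTCCCGC, TTTGGCGC, TTTCGCGC and TTTGCCGC. Matches may overlap each other. For the 34 genes 1 window each was counted, the first for Cdkn3 and Kif2c, which have 2. The second window of Kif2c holds no match. The share over all windows counts every window, also several of 1 gene, and was not limited to measured genes. A CCAAT box was found in 25 of the 34 windows (73.5%), against 37.5% of all 33469 windows. A CHR was also found in 25 (73.5%), against 29.4% of all windows, and both together in 19 (55.9%), against 11.8%. An E2F match was found in 8 windows (23.5%), against 2.14%. Among the 13 windows of genes with an r of 0.8 or higher, 11 held a CCAAT box, 11 a CHR and 2 an E2F match. Among the 9 with an r under 0.5, 5 held a CCAAT box, 6 a CHR and 2 an E2F match. A match is a description of letters and not of binding. The windows follow annotated starts, and whether these starts are used in liver was not tested. A window may therefore miss the promoter in use. No window was at hand for Ube2c, Ccna2, Aurkb, Ccnd1, Mcm4, Pbk and Racgap1.

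Shown first are 4 genes with an r over 0.9 whose windows hold CCAAT and CHR letters, then Mcm6, a subunit of the replicative helicase with a pair of overlapping E2F matches, and last Cdkn1a, an inhibitor of the cycle that did not follow the others and has no match. This choice does not stand for all windows of genes with a high or low r. Birc5, Kif11, Kif23 and Hmmr, with an r under 0.5, hold both CCAAT and CHR letters. Tk1 (r of 0.82) has no match either, and Cdca3 (0.97) has CCAAT but no CHR letters. Capitals mark every match to the letters above. The windows lie at chr20:19265043-19265342 (plus strand, Cdk1), chr3:127057045-127057344 (plus strand, Nusap1), chr5:137255750-137256049 (minus strand, Cdc20), chr1:143659231-143659530 (plus strand, Prc1), chr13:42404303-42404602 (minus strand, Mcm6) and chr20:7150682-7150981 (plus strand, Cdkn1a), and each is written 5′ to 3′ in the direction of its gene.
Cdk1: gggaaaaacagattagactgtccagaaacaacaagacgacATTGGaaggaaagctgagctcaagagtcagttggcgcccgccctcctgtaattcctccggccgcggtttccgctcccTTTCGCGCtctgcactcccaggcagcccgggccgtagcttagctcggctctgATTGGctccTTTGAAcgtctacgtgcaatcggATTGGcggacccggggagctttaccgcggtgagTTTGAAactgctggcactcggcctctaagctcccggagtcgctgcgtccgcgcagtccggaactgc
Nusap1: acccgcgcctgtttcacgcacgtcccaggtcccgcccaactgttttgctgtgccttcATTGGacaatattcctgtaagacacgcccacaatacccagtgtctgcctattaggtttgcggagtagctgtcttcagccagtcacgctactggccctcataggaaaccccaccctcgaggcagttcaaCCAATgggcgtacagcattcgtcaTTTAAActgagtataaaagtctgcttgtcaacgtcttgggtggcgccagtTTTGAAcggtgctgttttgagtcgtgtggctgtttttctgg
Cdc20: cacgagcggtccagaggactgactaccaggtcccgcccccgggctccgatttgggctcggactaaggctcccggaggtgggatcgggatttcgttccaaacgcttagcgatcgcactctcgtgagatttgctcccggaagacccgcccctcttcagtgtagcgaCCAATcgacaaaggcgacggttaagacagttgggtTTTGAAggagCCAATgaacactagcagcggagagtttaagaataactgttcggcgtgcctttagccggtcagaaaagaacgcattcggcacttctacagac
Prc1: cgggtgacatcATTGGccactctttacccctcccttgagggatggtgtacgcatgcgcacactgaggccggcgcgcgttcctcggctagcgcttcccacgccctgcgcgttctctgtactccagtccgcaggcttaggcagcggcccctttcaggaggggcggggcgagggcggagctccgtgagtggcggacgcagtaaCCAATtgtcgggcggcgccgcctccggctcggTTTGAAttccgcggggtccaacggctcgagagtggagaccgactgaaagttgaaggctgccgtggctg
Mcm6: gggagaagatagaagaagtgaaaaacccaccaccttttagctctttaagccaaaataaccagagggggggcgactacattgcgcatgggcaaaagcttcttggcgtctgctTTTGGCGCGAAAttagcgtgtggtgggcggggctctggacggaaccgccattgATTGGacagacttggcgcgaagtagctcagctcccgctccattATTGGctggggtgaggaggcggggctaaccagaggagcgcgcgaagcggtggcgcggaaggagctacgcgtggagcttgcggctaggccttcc
Cdkn1a: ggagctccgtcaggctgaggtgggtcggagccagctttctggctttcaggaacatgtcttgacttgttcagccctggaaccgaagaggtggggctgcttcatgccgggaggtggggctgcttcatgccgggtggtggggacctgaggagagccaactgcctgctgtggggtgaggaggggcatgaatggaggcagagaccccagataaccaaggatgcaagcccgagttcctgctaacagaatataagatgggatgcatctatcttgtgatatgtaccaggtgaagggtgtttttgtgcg

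The Cdk1 window holds 3 CCAAT matches, 2 CHR matches and 1 E2F match. In the windows of Cdc20 and Prc1, 1 CHR match and 2 CCAAT matches were found, and Nusap1 had 2 of each. The CHR matches nearest the start began at base 235 of the window in Cdk1, 233 in Prc1, 260 in Nusap1 and 200 in Cdc20, where base 251 is the annotated start.

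The diet comparisons asked whether the protein source, the oil or their combination changed these genes. The protein effect is the mean of TF and TS minus the mean of CF and CS, the oil effect the mean of TF and CF minus the mean of TS and CS, and the interaction the oil effect on tofu minus that on casein. Each was tested with limma over 31039 probe sets, with p-values adjusted by the Benjamini-Hochberg method and a threshold of 0.05.

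Ccnd1, which encodes cyclin D1, the partner of Cdk4 and Cdk6 that starts the cycle, fell on tofu. Its z was 1.06, 1.10, 0.98, 0.92 and 1.25 in TF rats, 0.999, 0.94, 1.01, 0.89 and 0.95 in TS rats, 1.26, 1.20, 1.25, 1.23 and 1.37 in CF rats and 1.11, 1.28, 1.34, 1.11 and 1.25 in CS rats. It averaged 1.01 ± 0.106 in tofu rats and 1.24 ± 0.0869 in casein rats (SD, n = 10 each), a difference of -0.232 ± 0.042 (SE, adjusted p = 0.0118) or 1.49-fold lower on tofu. All tofu rats but TF-7 lay below the lowest casein rat, and all 10 casein rats lay above the tofu mean. Both other probe sets of Ccnd1 were lower on tofu as well, by -0.197 (adjusted p = 0.0257) and -0.257 (adjusted p = 0.402). Its oil effect was 0.074 (adjusted p = 0.943) and its interaction 0.057 (adjusted p = 1.0). The call was kept when any 1 rat was left out (adjusted p 0.00355 to 0.0289). It was lost without the 4 rats whose 5' beta-actin was low (-0.251, adjusted p = 0.0590), without the 3 least correlated arrays (-0.222, adjusted p = 0.0817) and with the mean of the 3 probe sets (-0.229, adjusted p = 0.0515).

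**Figure D3:**
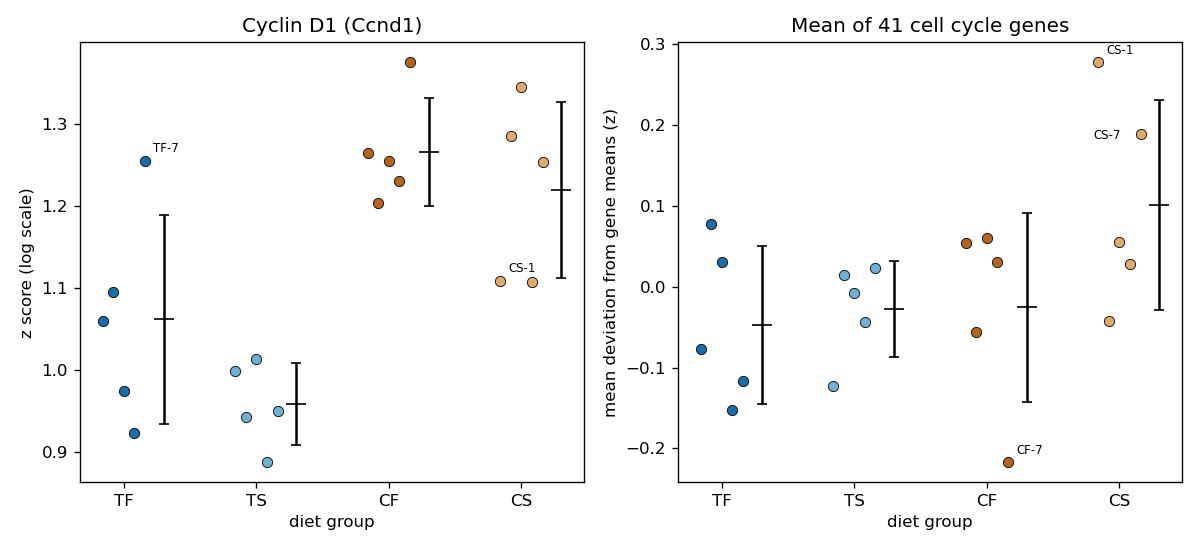
Left, z of Ccnd1 by rat and diet; right, mean deviation of the 41 genes from their means by rat and diet; points are rats, and bars are the mean and SD of 5 rats. Ccnd1 is lower in both tofu groups except in TF-7, while the mean of the 41 genes is highest in CS-1 and CS-7 and lowest in CF-7.

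Ccnd1 was the only 1 of the 41 genes called in the protein effect, 0 higher and 1 lower, where 0.921% of all genes were called and 0.401% were called lower. In the oil effect 0 of the 41 were called (lowest adjusted p = 0.628), where 0.302% of all genes were, and in the interaction 0 were called (lowest adjusted p = 1.0), as 0.00% of all genes were. At an unadjusted p under 0.05, 5 of the 41 were lower and 1 was higher on tofu, where 4.04% of all genes were lower and 7.45% higher. For fish oil, 5 were lower and 0 higher at that p, where 2.60% of all genes were lower and 2.95% higher, and in the interaction it was 0, where 2.53% of all genes were under it in either direction.

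The signs of the differences ran mostly 1 way. The protein effect was below 0 in 31 of the 41 genes, with a median of -0.0846, while the median over all genes was 0.0112 and 58.0% of them were above 0. The oil effect was below 0 in 37 of the 41, with a median of -0.0720, while that of all genes was -0.00184 and 48.2% were above 0. The interaction was above 0 in 36 of the 41, with a median of 0.106, while that of all genes was -0.00729 and 45.8% were above 0. The median SE of the 41 genes was 0.0706 for each main effect and 0.141 for the interaction, so a typical interaction lay within 1 SE of 0. Since these genes correlate between rats, their signs are not independent of each other. Without CS-1 the medians were -0.0490 for protein, -0.0532 for oil and 0.0598 for the interaction. Without the 4 rats whose 5' beta-actin was low, CS-1 among them, they were -0.0275, -0.0707 and 0.0670 in the same order, and the protein effect was above 0 in 14 of the 41 genes. Without the 3 least correlated arrays they were -0.141, -0.102 and 0.0501. The median interaction was also lower without TF-4 (0.0581), without CF-7 (0.0625) and with array weights (0.0624).

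**Figure D4:**
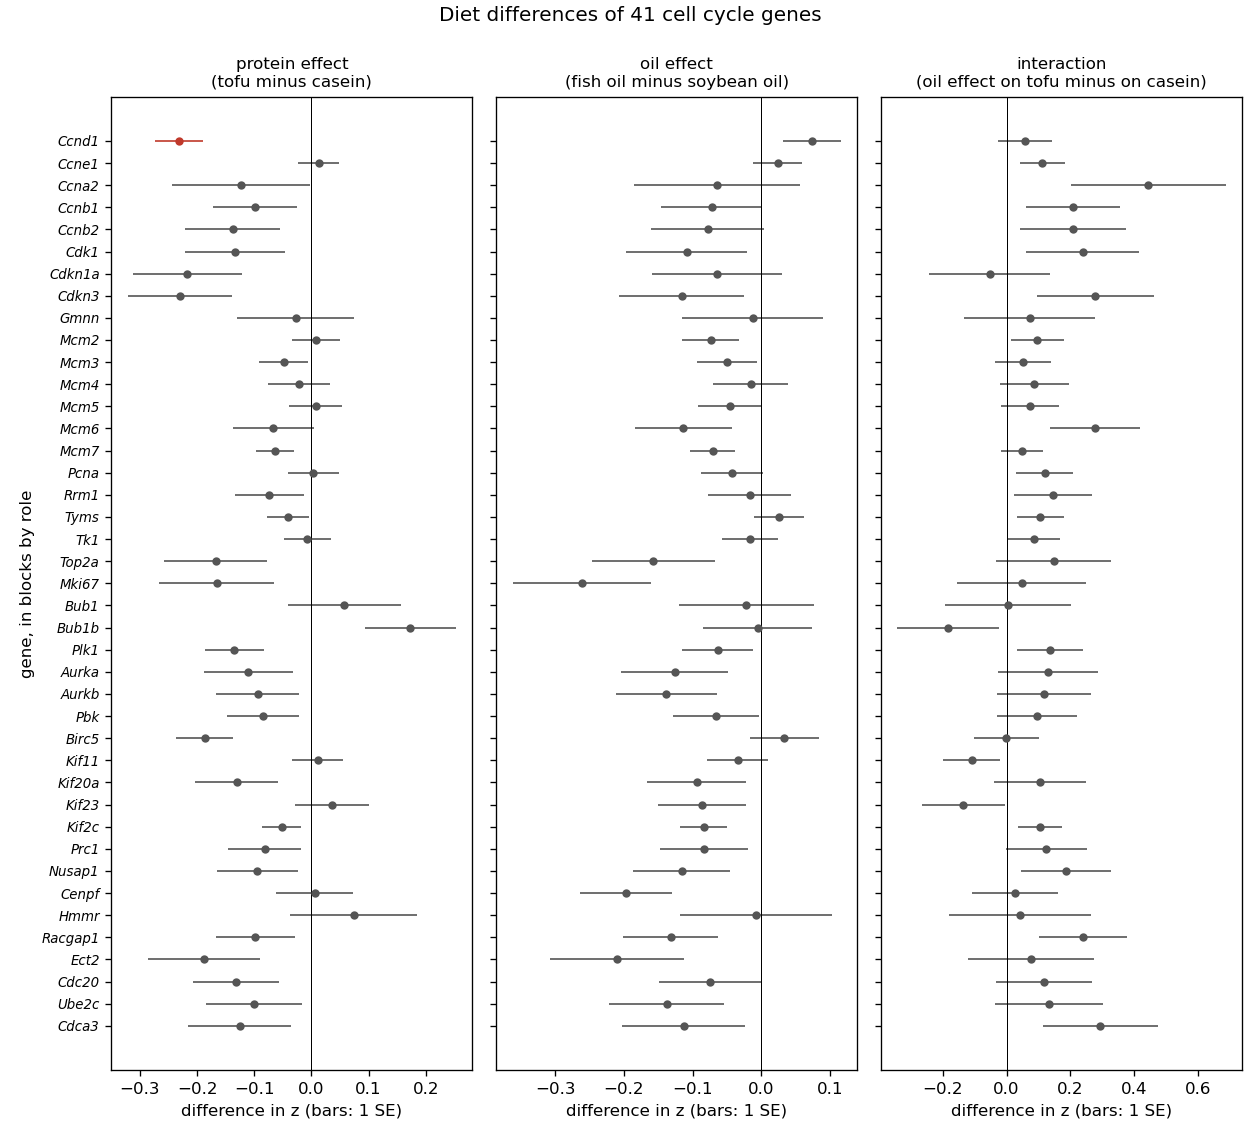
Protein effect, oil effect and interaction of each of the 41 genes in z, with bars of 1 SE; Ccnd1, the gene with an adjusted p under 0.05, is red. Most points lie left of 0 for protein and oil and right of 0 for the interaction, with bars that often reach 0.

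Set against CS, whose mean level was the highest of the 4 diets, the other diets were lower in most of the 41 genes. The difference TF minus CS was below 0 in 37 of the 41 genes (median -0.165, that of all genes 0.0101), TS minus CS in 36 (median -0.153, all genes 0.0141) and CF minus CS in 37 (median -0.131, all genes 0.00234). These 3 comparisons share the CS rats. With CS left aside, the median differences were near 0. The median was -0.0145 for TF minus CF (all genes 0.0078), below 0 in 23 of the 41. It was -0.0150 for TF minus TS (all genes -0.0046), also below 0 in 23. Single genes ran from -0.244 to 0.0984 for TF minus CF and from -0.238 to 0.158 for TF minus TS. None of the 41 was called in these 5 comparisons (lowest adjusted p = 0.279, 0.181, 1.0, 0.389 and 0.892, in the order given), where 0.753%, 0.106%, 0.0844%, 0.0985% and 0.134% of all genes were called.

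At an unadjusted p under 0.05, 14 of the 41 were lower in TF than in CS, 7 were lower in TS than in CS and 4 in CF than in CS, where 4.23%, 2.46% and 1.26% of all genes were. In TS minus CS, 1 was higher at that p (Bub1b), where 5.07% of all genes were. In TF minus CF, 2 of the 41 were lower (3.09% of all genes), and in TF minus TS 0 were (2.76%). These counts moved with single rats. The shares of all genes under that p are not given for these repeats. Whether the movement is particular to the 41 genes therefore cannot be told. For TF minus CS the count was 7 without CS-7, TF-6 or TF-7, 8 without CS-1, 22 without CS-2 or TF-4, and 5 without the 4 rats whose 5' beta-actin was low. For TS minus CS it was 4 without CS-1 or CS-7, 15 without CS-2, 12 without CS-6 and 11 without CF-7. For CF minus CS it was 1 without CS-1 or CF-7, 2 without CS-7, 12 without CS-2, 11 without CS-6, 10 without CF-1, 9 without CF-5, and 7 without CF-6 or TF-4.

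**Figure D5:**
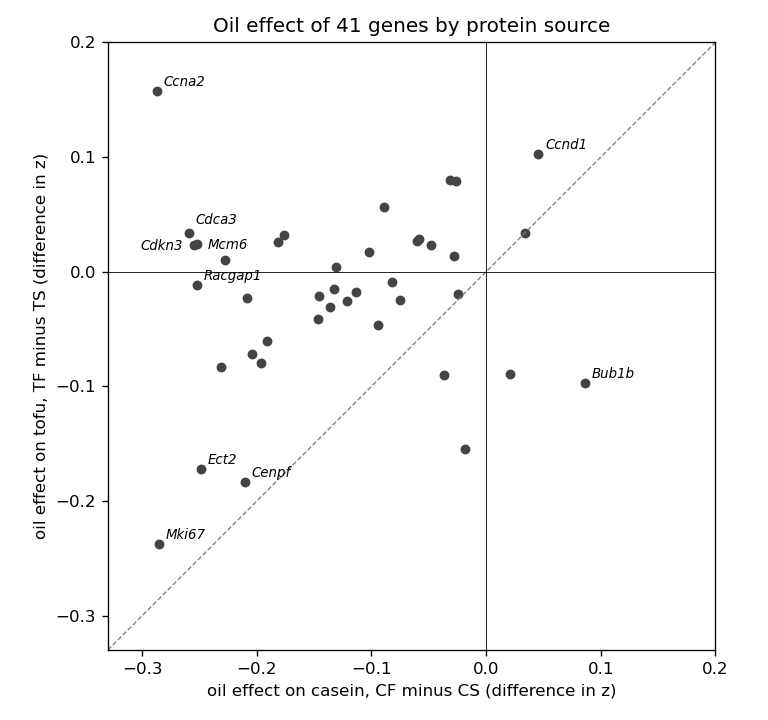
Oil effect on tofu (TF minus TS, vertical axis) against the oil effect on casein (CF minus CS, horizontal axis) for the 41 genes, in z, with the dashed line of equal effects. Most points lie left of 0, from -0.287 for Ccna2 to 0.0864 for Bub1b, and spread around 0 on the vertical axis, from -0.238 for Mki67 to 0.158 for Ccna2.

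Among the 6 cyclins and Cdk1, which set the order of the phases, the interaction was above 0 in all 6, from 0.0571 for Ccnd1 to 0.444 for Ccna2. Ccna2 encodes cyclin A2, needed in S phase and at entry into mitosis, and its z was -0.092, 0.20, 0.18, -0.10 and -0.14 in TF rats, -0.65, 0.054, 0.092, 0.056 and -0.28 in TS rats, 0.099, 0.00012, 0.23, 0.096 and -0.86 in CF rats and 0.31, 0.051, 0.23, 0.18 and 0.23 in CS rats. TS-1 and CF-7 lay far below all other rats, and the groups overlapped. Its interaction of 0.444 ± 0.242 (SE, adjusted p = 1.0) was the largest among the 41 genes, and dropped to 0.251 at the lowest when 1 rat was left out. Cyclins B1 and B2, the partners of Cdk1, averaged 0.26 ± 0.18 and 0.34 ± 0.154 in TF, 0.23 ± 0.149 and 0.31 ± 0.142 in TS, 0.25 ± 0.179 and 0.37 ± 0.231 in CF, and 0.43 ± 0.182 and 0.55 ± 0.237 in CS (SD, n = 5 each). Ccne1, encoding cyclin E1 of the entry into S phase, had a protein effect of 0.013 and an oil effect of 0.024.

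With the probe sets used, the 3 inhibitors were all below 0 in both main effects, with none called. Cdkn3, a phosphatase that acts on Cdk proteins and is itself made in mitosis, measured 0.46, 0.51, 0.52, 0.13 and 0.43 in TF rats, 0.13, 0.50, 0.25, 0.40 and 0.64 in TS rats, 0.68, 0.42, 0.55, 0.76 and 0.095 in CF rats and 0.94, 0.58, 0.58, 0.61 and 1.06 in CS rats. All 5 CS rats lay above all 5 TF rats, and CS-1 and CS-7 were the highest of the 20. Its protein effect was -0.230 ± 0.091 (SE, adjusted p = 0.371), its difference TF minus CS -0.346 (adjusted p = 0.35) and its interaction 0.278 ± 0.182 (SE, adjusted p = 1.0). Cdkn1a, the p53 target that arrests the cycle, averaged 0.91 ± 0.255 in tofu rats and 1.12 ± 0.167 in casein rats (SD, n = 10 each), with a protein effect of -0.217 (adjusted p = 0.436). Its other probe set gave -0.033 for protein, and for oil 0.160, against -0.064 with the first. Gmnn, geminin, which blocks a further round of replication, had a protein effect of -0.027 and an oil effect of -0.012. Its other probe set was above 0 in both, at 0.025 for protein and 0.112 for oil (unadjusted p = 0.0250, adjusted p = 0.802).

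In the helicase and fork group, all 7 interactions were above 0 and all 7 oil effects below 0. The interactions ran from 0.0480 to 0.276 and the oil effects from -0.114 to -0.0149, and none was called. The protein effects of the 7 genes, Mcm2 to Mcm7 and Pcna, the sliding clamp of the polymerases, lay between -0.067 and 0.0087. Mcm6 measured 0.011, 0.43, 0.17, 0.025 and 0.012 in TF rats, 0.097, -0.048, 0.21, 0.083 and 0.18 in TS rats, 0.13, -0.022, 0.33, -0.028 and -0.13 in CF rats and 0.60, 0.15, 0.29, 0.15 and 0.37 in CS rats. CS-1 and TF-4 were the highest and CF-7 the lowest. Its interaction, 0.276 ± 0.141 (SE, unadjusted p = 0.0655, adjusted p = 1.0), had the lowest unadjusted p among the 41 genes. Mcm7 had an oil effect of -0.070 (unadjusted p = 0.0461, adjusted p = 0.891).

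The 3 nucleotide supply genes, which make the building blocks of DNA, had protein effects of -0.074 for Rrm1, -0.041 for Tyms and -0.0072 for Tk1. Rrm1, the large subunit of ribonucleotide reductase, measured 0.11, 0.41, 0.11, 0.059 and 0.069 in TF rats, -0.12, 0.16, 0.11, 0.0081 and 0.32 in TS rats, 0.26, 0.20, 0.16, 0.061 and 0.088 in CF rats and 0.51, 0.19, 0.16, 0.22 and 0.13 in CS rats. TF-4 in TF and CS-1 in CS stood apart from the other 4 rats of their diets. Its interaction was 0.145 ± 0.121 (SE, adjusted p = 1.0).

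Top2a, the topoisomerase that untangles chromosomes, measured -0.039, 0.39, -0.037, -0.13 and -0.22 in TF rats, -0.042, 0.15, 0.19, 0.14 and -0.046 in TS rats, 0.32, 0.15, 0.072, 0.17 and -0.28 in CF rats and 0.77, 0.16, 0.20, 0.24 and 0.22 in CS rats. CS-1 stood apart from all other rats, and the other rats of the 4 diets overlapped. Its protein effect was -0.168 ± 0.090 (SE, adjusted p = 0.561) and its interaction 0.148 ± 0.180 (SE, adjusted p = 1.0). The sign of that interaction was not stable, at -0.0060 without the 3 least correlated arrays. Mki67, the widely used proliferation marker that coats mitotic chromosomes, measured -0.58, -0.80, -0.71, -0.97 and -0.74 in TF rats, -0.70, -0.77, -0.34, -0.53 and -0.27 in TS rats, -0.44, -0.56, -0.49, -0.58 and -1.03 in CF rats and 0.16, -0.73, -0.46, -0.30 and -0.34 in CS rats. It averaged -0.69 ± 0.201 in fish oil rats and -0.43 ± 0.279 in soybean oil rats (SD, n = 10 each), an oil effect of -0.261 ± 0.101 (SE, adjusted p = 0.738). CS-1 was the only rat above 0, CF-7 was the lowest, and the oils overlapped. The mean z of Mki67 was below all array medians in all 4 diets.

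Among the 7 mitotic kinases and checkpoint genes the signs differed. Plk1, a kinase of mitotic entry and spindle assembly, measured 0.13, 0.34, 0.25, 0.28 and 0.12 in TF rats, 0.067, 0.38, 0.17, 0.26 and 0.22 in TS rats, 0.28, 0.16, 0.30, 0.43 and 0.27 in CF rats and 0.49, 0.35, 0.43, 0.21 and 0.63 in CS rats. Its protein effect was -0.135 ± 0.052 (SE, adjusted p = 0.353), with CS-7 highest, TS-1 lowest and the diets overlapping. Birc5, survivin, a partner of Aurora B that also blocks apoptosis, measured -0.056, -0.30, -0.0021, -0.11 and -0.090 in TF rats, -0.12, -0.024, -0.13, -0.055 and -0.40 in TS rats, 0.014, -0.029, 0.13, 0.045 and 0.21 in CF rats and 0.12, -0.021, -0.010, -0.031 and 0.15 in CS rats. All 10 tofu rats were below 0 and 8 of them lay below the lowest casein rat. It averaged -0.13 ± 0.127 in tofu rats and 0.058 ± 0.0878 in casein rats (SD, n = 10 each), a protein effect of -0.187 ± 0.050 (SE, adjusted p = 0.126), and it passed the threshold at 0.0456 when only bright probe sets were tested. Bub1b, a spindle checkpoint kinase, went the other way and measured -0.26, -0.17, -0.037, -0.39 and -0.060 in TF rats, 0.053, -0.15, -0.37, -0.29 and 0.32 in TS rats, -0.34, -0.20, -0.10, -0.42 and -0.25 in CF rats and -0.098, -0.53, -0.44, -0.39 and -0.30 in CS rats. TS-7 and TS-1 were its highest rats and CS-2 its lowest, with a protein effect of 0.173 ± 0.080 (SE, adjusted p = 0.463) and an interaction of -0.183 (adjusted p = 1.0). Aurka and Aurkb, the Aurora kinases, had oil effects of -0.126 and -0.138, and Pbk one of -0.066. None of the 3 was called.

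Of the 8 spindle and kinetochore genes, all had oil effects below 0, from -0.197 for Cenpf to -0.0072 for Hmmr, and none was called. Cenpf, a large kinetochore protein, measured -0.62, -0.26, -0.59, -0.61 and -0.86 in TF rats, -0.53, -0.50, -0.35, -0.34 and -0.30 in TS rats, -0.53, -0.53, -0.40, -0.70 and -0.86 in CF rats and -0.29, -0.41, -0.54, -0.41 and -0.32 in CS rats. It averaged -0.60 ± 0.185 in fish oil rats and -0.40 ± 0.0967 in soybean oil rats (SD, n = 10 each), an oil effect of -0.197 ± 0.067 (SE, unadjusted p = 0.00856, adjusted p = 0.628), and its protein effect was 0.0056. TF-7 and CF-7 were the lowest rats, TF-4 was the highest, and the oils overlapped. The z of Cenpf was below all array medians in every rat. Kif2c, a kinesin that takes microtubules apart, measured -0.18, -0.26, -0.096, -0.21 and -0.14 in TF rats, -0.24, -0.14, -0.13, -0.15 and -0.078 in TS rats, -0.18, -0.21, -0.093, -0.092 and -0.31 in CF rats and 0.065, -0.11, -0.094, -0.069 and -0.0092 in CS rats. Its oil effect was -0.084 ± 0.034 (SE, adjusted p = 0.805), and its second probe set gave -0.073. CS-1 was the highest rat and CF-7 the lowest. The mean z of Kif2c was not above the highest array median in any diet. Nusap1 measured 0.11, 0.36, 0.29, 0.024 and 0.024 in TF rats, -0.037, 0.32, 0.22, 0.16 and 0.25 in TS rats, 0.27, 0.17, 0.25, 0.30 and -0.18 in CF rats and 0.63, 0.23, 0.29, 0.24 and 0.45 in CS rats, with CS-1 highest and CF-7 lowest. Its interaction was 0.186 ± 0.142 (SE, adjusted p = 1.0). Among the motors Kif11, Kif20a and Kif23, the protein effects were 0.011, -0.131 and 0.036.

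Racgap1 and Ect2 together start the cleavage furrow of cytokinesis. Racgap1 measured -0.12, 0.022, -0.013, -0.24 and -0.23 in TF rats, -0.31, 0.062, -0.11, -0.077 and -0.086 in TS rats, -0.037, -0.20, -0.056, 0.021 and -0.41 in CF rats and 0.38, -0.081, 0.0086, -0.019 and 0.29 in CS rats. CS-1 and CS-7 were the highest rats and CF-7 the lowest. Its interaction was 0.240 ± 0.138 (SE, adjusted p = 1.0), and its other probe set gave -0.033. Ect2 averaged -0.46 ± 0.254 in TF, -0.28 ± 0.156 in TS, -0.30 ± 0.249 in CF and -0.057 ± 0.26 in CS (SD, n = 5 each), a TF minus CS difference of -0.399 (adjusted p = 0.307). Cdca3 measured 0.48, 0.67, 0.65, 0.26 and 0.38 in TF rats, 0.26, 0.64, 0.45, 0.43 and 0.49 in TS rats, 0.63, 0.38, 0.68, 0.61 and 0.036 in CF rats and 1.01, 0.47, 0.61, 0.58 and 0.97 in CS rats. It too was highest in CS-1 and CS-7 and lowest in CF-7, and its interaction was 0.294 ± 0.180 (SE, adjusted p = 1.0). Cdc20 and Ube2c had protein effects of -0.131 and -0.100 and oil effects of -0.074 and -0.138. Of the 13 genes with several probe sets, the sign differed between probe sets in 6 for protein, 4 for oil and 5 for the interaction.

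In 38 of 43 listed other replication genes, 46 of 54 other mitosis genes, 36 of 38 regulators of the cycle and 15 of 20 p53 target and growth arrest genes that were measured, 0 were called by limma in the protein effect, the oil effect or the interaction. At an unadjusted p under 0.05, 3, 0, 1 and 0 of them, in the order of the lists, were higher on tofu and 2, 5, 1 and 1 were lower, where 7.45% of all genes were higher and 4.04% lower. For oil, 4 mitosis genes were lower and no gene of the 4 lists was higher, where 2.60% of all genes were lower and 2.95% higher. For the interaction, 2 mitosis genes were under that p, where 2.53% of all genes were. The median protein effects were -0.0633 in the mitosis list, -0.0211 in the p53 list, -0.0146 in the regulators and -0.0021 in the replication list. The oil effect was below 0 in 38 of the 46 mitosis genes, 32 of the 38 replication genes, 29 of the 36 regulators and 9 of the 15 p53 genes, with medians of -0.0594, -0.0344, -0.0326 and -0.0226. The interaction was above 0 in 35, 24, 19 and 3 of them, with medians of 0.0982, 0.0520, 0.0247 and -0.0295.

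The lists followed the 41 genes from rat to rat in unequal measure. The median r with the mean of the 41 genes was 0.531 in the mitosis list, 0.351 in the replication list, 0.203 in the p53 list and 0.198 in the regulators, and 24, 12, 1 and 4 of their genes reached 0.5. The mean of the mitosis list was 0.252 in CS-1, 0.132 in CS-7 and -0.0894 in CF-7, and that of the replication list 0.145, 0.0504 and -0.0251. Over all genes outside the 41, the 10 with the highest r were Stmn1, a microtubule destabilizer (0.95), Tcf19 (0.92), the Pcna partner Pclaf (0.89), Tacc3 of the spindle (0.89), Spc24 of the kinetochore (0.88), Pttg1, securin (0.88), the kinesins Kif22 (0.86) and Kifc1 (0.86), the Cdk inhibitor Cdkn2c (0.85) and Cdca8, borealin (0.84). These r values are over 20 rats, and 7 of the 10 genes belong to the lists above. None of the 10 was called in a main effect or the interaction.

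Named from the lists by the lowest unadjusted p of the interaction, the mitotic checkpoint kinase Ttk had an interaction of 0.683 ± 0.233 (SE) and the kinetochore gene Cenpk of 0.323 ± 0.151 (SE). Among the regulators, Ccne2, cyclin E2, had 0.263 and the inhibitor Cdkn1b 0.153. For replication, Timeless of the fork had -0.175 and the polymerase subunit Pold1 -0.109, and in the p53 list Gadd45g had -0.533 and the nuclease Aen -0.0851. Each of these 8 had an adjusted p of 1.0. The z of Ttk averaged -0.496 ± 0.322 in TF, -0.697 ± 0.17 in TS, -0.975 ± 0.378 in CF and -0.493 ± 0.182 in CS (SD, n = 5 each), below the array medians in all 4 diets.

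Markers of the other cells of liver were set beside these values. In CS-1, CS-7 and CF-7, the mean deviation of 7 Kupffer cell and macrophage genes was -0.0016, -0.125 and -0.0153, that of 10 lymphocyte genes 0.0148, -0.0103 and 0.0802, and that of 7 erythroid genes -0.00022, -0.142 and -0.134. The 5 endothelial genes gave -0.0051, -0.107 and -0.0076, the 7 stellate cell genes 0.0523, -0.0833 and -0.105, the 6 cholangiocyte and progenitor genes -0.0292, -0.0139 and -0.0138, the 3 neutrophil and myeloid precursor genes -0.103, -0.298 and 0.123, and the 7 hepatocyte genes -0.0156, -0.0026 and -0.113. In CF-7, where the mean of the 41 genes was lowest, 6 of the 8 lists were below 0 as well, the erythroid, hepatocyte and stellate cell lists the lowest, and the neutrophil and lymphocyte lists were above 0. The part of these cells in the levels of single rats was not tested. The 10 lymphocyte genes, Cd3e and Ms4a1 among them, had mean z from -0.361 to 0.0219, not above the highest array median.

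By diet, the erythroid list spanned -0.155 to 0.162 in TF, 0.0458 to 0.206 in TS, -0.137 to -0.0088 in CF and -0.146 to -0.00022 in CS, as the mean deviation per rat, with TS above CF and CS. The stellate cell list spanned -0.0786 to 0.0528 in TF, 0.0161 to 0.106 in TS, -0.105 to 0.0139 in CF and -0.0833 to 0.0523 in CS, with all TS rats above the 5 CF rats. The neutrophil and myeloid precursor list, S100a8, S100a9 and Camp, spanned -0.116 to 0.279 in TF, -0.207 to 0.286 in TS, -0.187 to 0.187 in CF and -0.298 to -0.100 in CS. All 5 CS rats were below 0 in it, and its 3 genes were higher than CS in TF, TS and CF, by medians of 0.167, 0.202 and 0.0908, with 1, 2 and 1 of them at an unadjusted p under 0.05 and none called (lowest adjusted p = 0.234, 0.625 and 1.0). At that unadjusted p, 5.07% of all genes were higher in TS than in CS. In the 3 comparisons, 0.753%, 0.106% and 0.0844% of all genes were called. The neutrophil and myeloid precursor genes measured were 3 of the 7 listed, and S100a8 and Camp were not above the highest array median in any diet. The endothelial list spanned -0.0216 to 0.0880 in TF, 0.0026 to 0.119 in TS, -0.0887 to 0.0018 in CF and -0.107 to 0.0079 in CS. All 5 of its genes were above 0 in the protein effect, by 0.0547 to 0.132 (lowest adjusted p = 0.0635). The hepatocyte list spanned -0.0977 to 0.144 in TF, 0.0064 to 0.116 in TS, -0.113 to 0.0753 in CF and -0.0852 to -0.0026 in CS. The Kupffer cell, lymphocyte and cholangiocyte lists overlapped between all 4 diets. In the erythroid and stellate cell lists 1 gene each was called, higher on tofu, namely Slc4a1, the red cell anion exchanger, at 0.250 (adjusted p = 0.0327), and Rgs5, a pericyte gene, at 0.277 (adjusted p = 0.0151). These 2 calls were among 52 marker genes, where 0.921% of all genes were called in the protein effect in either direction. No gene of the other 6 lists was called in the protein effect, and none of the 8 lists had a call in the oil effect or the interaction. The oil effect was below 0 in all 7 Kupffer cell, all 7 erythroid and all 7 stellate cell genes. The medians were -0.0707, -0.0684 and -0.0672, against -0.0720 in the 41 genes. It was below 0 in 4 of 7 hepatocyte, 3 of 5 endothelial and 5 of 10 lymphocyte genes. In the cholangiocyte list it was below 0 in 3 of 6 genes, and in the neutrophil list in 0 of 3. Of the 52 marker genes, 8 were higher and 0 lower on tofu at an unadjusted p under 0.05 (7.45% and 4.04% of all genes), 1 was higher and 3 were lower on fish oil (2.95% and 2.60%), and 2 were under that p in the interaction (2.53%). The part of these cells in the differences between diets was not tested.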

How the data were processed

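Liver RNA of 20 rats was hybridized to 1 array each. The deposited values are scores: z scores on a log scale, which the authors obtained by normalizing the signals of each array with the SuperNORM service. Of 31099 probe sets, 57 are controls, and 31039 with at least 3 values per group were tested. Symbols came from the platform annotation, updated by Entrez ID: 20825 probe sets had 1 symbol, 436 several and 9778 none.

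The 4 group means were fitted without covariates with limma 3.58.1 in R 4.3.3, with Benjamini-Hochberg adjustment over the 31039 probe sets. The workflow was tested on simulated data. Signals of single probes, and thus the precision within an array, were not used, so the number of rats sets the precision. The 41 members and all lists were chosen with earlier results of these data known. Members named in full had an adjusted p under 0.05, 1 of the 3 lowest unadjusted p-values of a main effect or the interaction, or the largest interaction of their role (15 members). List genes named were those called, or the 2 lowest interaction p-values of a list.

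Alternatives were quantile normalization, equal median and spread of each array, averaging the probe sets of each gene, bright probe sets only, a variance trend, no moderation, array weights, 2-group fits, a rat number block and leaving out each rat. Removal or blocking of the 4 rats with low 5' beta-actin, removal of the 3 least correlated arrays, and all repeats of the unadjusted counts were added after seeing the data.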

Additional observations from a re-analysis of the deposited data

Results flagged for a closer look

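In 64 tests of a rat far from the other 4 of its diet, made on the named members and the mean level, 8 gaps exceeded the 95% critical value of Dixon's ratio (the gap to the nearest rat over the range of the group), and chance gives about 1 in 20. The named members were picked by their p-values and interactions in these data, so that rate need not hold for them. CF-7 was far below the other CF rats in Ccna2 (-0.863, others 0.00012 to 0.229, ratio 0.790), Mki67 (-1.03, others -0.575 to -0.438, ratio 0.769) and Nusap1 (-0.181, others 0.165 to 0.303, ratio 0.715). CS-1 was far above the other CS rats in Top2a (0.766, others 0.163 to 0.242, ratio 0.869) and Rrm1 (0.512, others 0.132 to 0.224, ratio 0.758). In TF, Rrm1 was far higher in TF-4 (0.407, others 0.0594 to 0.114, ratio 0.843), and Cdkn3 far lower in TF-6 (0.125, others 0.425 to 0.517, ratio 0.766). In TS, Birc5 was far lower in TS-7 (-0.402, others -0.133 to -0.0239, ratio 0.712). The mean level itself gave no gap over the critical value, with a largest ratio of 0.583 for CF-7. CS-1 and CF-7 were the highest and lowest rats in that level. TF-4, TF-6 and TS-7 ranked 3, 19 and 10 in it from the highest. Since most of these genes correlate between rats, the 8 gaps are not independent of each other.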

How the results depend on the processing

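The call of Ccnd1 in the protein effect was lost, leaving 0 genes called, when the probe sets of each gene were averaged, without the 4 rats with low 5' beta-actin and without the 3 least correlated arrays, and 2 genes (Ccnd1 and Birc5) were called with bright probe sets only, which tests fewer probe sets. With each rat left out in turn, 1 gene was called for protein and 0 for oil and interaction, and the medians spanned -0.112 to -0.049, -0.0888 to -0.0525 and 0.0581 to 0.147. In the other 11 settings they spanned -0.141 to -0.0275, -0.102 to -0.0620 and 0.0501 to 0.123, with 0 genes called for oil and interaction in each. The 5 comparisons of single diets gave 0 calls with quantile normalization and with 2-group fits. The counts at an unadjusted p under 0.05 changed most: for TF minus CS, 14 became 6 with the rat number block, 5 without the low 5' beta-actin rats and 24 without the least correlated arrays (7 to 22 with 1 rat left out). For TS minus CS, 7 became 13 with quantile normalization, 15 with median and interquartile scaling, 4 with array weights and 2 without the low 5' beta-actin rats (4 to 15 with 1 rat left out). For CF minus CS, 4 became 7 with quantile normalization, with scaling, with the block and without the least correlated arrays, and 0 without the low 5' beta-actin rats (1 to 12 with 1 rat left out). Of 460 values of the 15 named results, 455 kept their direction and side of the threshold, 3 lost the call (Ccnd1), 1 gained it (Birc5) and 1 changed sign (Top2a interaction, -0.0060 without the least correlated arrays). The cause of these changes was not tested. Labels number the rats, and what the numbers stand for is not given. Over 22 pairs with the same number, deviations correlated at a mean r of 0.021, and 1 pair exceeded 0.1. A mean over all pairs cannot tell whether single numbers share a source. The rats with low 5' beta-actin (TF-3, TS-1, CF-1 and CS-1) were the lowest-numbered array rat of each diet. With the number as a replicate block, 1 gene was called for protein (Ccnd1, -0.257, adjusted p = 0.0343), 0 for oil and 0 for the interaction, with medians of -0.114, -0.0620 and 0.123. Values from 5 rats per diet, with a median SE of 0.141 for the interaction, leave differences of that size undetectable.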
